A study of Mus musculus with 140 samples.

Results

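TDP-43 is an RNA-binding protein, and a 3' UTR is the stretch of an mRNA between its stop codon and its 3' end. The regions described here are the clusters of TDP-43 eCLIP-seq reads that lie in 3' UTRs of mouse cortex and striatum. In eCLIP-seq, tissue is UV-crosslinked, the protein is pulled down (IP) with its bound RNA, and each stretch of piled-up reads, a cluster, is set against a size-matched input library. A cluster was assigned to a 3' UTR when its midpoint lay, on the same strand, in an annotated 3' UTR and in no coding sequence of a protein-coding transcript. Of 6,331,686 TDP-43 clusters in 32 IP libraries, 1,084,196 (17.1%) met this rule. Of these, 284,948 (26.3%) were enriched, meaning that the IP over input p in the deposited lists was 0.001 or less. Among all 832,539 enriched TDP-43 clusters, 34.2% were in 3' UTRs. The whole series held 11,782,476 clusters in 64 IP libraries, the other 32 of them m6A libraries.

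The R6/2 mice were B6CBA-Tg(HDexon1)62Gpb/3J animals, which express exon 1 of human mutant HTT and model Huntington's disease (HD), and they were compared with non-transgenic (NT) littermates. Animals were 3 months old, and flash-frozen striatum and cortex were used. Each region had 8 R6/2 and 8 NT libraries, 4 from males and 4 from females in each genotype. The transgene carries only the first exon of HTT and is expressed on top of the mouse's own gene, so it models one fragment of the disease protein. Whole tissue was used, so every value is a mixture of cell types.

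TDP-43, encoded by Tardbp, shuttles between nucleus and cytoplasm and prefers RNA with alternating U and G. In introns it regulates splicing, and in 3' UTRs it is known to affect mRNA stability, polyadenylation and transport in neurons. It also binds the 3' UTR of its own mRNA and so limits its own level. Medium spiny neurons (MSNs), the projection neurons of the striatum, are the cells most affected in HD, and many of their characteristic mRNAs are known to fall in HD mouse models.

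The sequences of 2 kinds of 3' UTR site show what these clusters look like (mm10, written as RNA, 5' to 3'). Each is a 30-base stretch around the middle of the part of the site that the most libraries covered, which need not be the middle of the site. Capitals mark the motifs UGUGU and GAAUG wherever they occur in the stretch, both known from TDP-43 studies. They were searched on the transcribed strand only, and overlapping occurrences were marked together. The first 4 stretches are from sites with an enriched cluster in all 32 libraries. Their richness in UG follows from how they were picked, because ties among such sites were broken by the number of UGUGU copies. The naming rule also gave a site in Fam168b, whose stretch held no UGUGU, and one in Pura, named only.
Cplx2 (complexin, synaptic release), chr13:54381242-54381271, + strand: UGUGUGUuagcucUGUGUugcaggcUGUGU
Kcna4 (potassium channel), chr2:107297185-107297214, + strand: gUGUGUGUGUGUgagagagcgagagagugu
Syngr1 (synaptic vesicle protein), chr15:80116275-80116304, + strand: ggguggggagugguggggUGUGUccacaug
D17Wsu92e, chr17:27751638-27751667, - strand: UGUGUgcacauguuuggaUGUGUgcacaug

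The second kind of site had an enriched cluster in all 8 NT libraries and in none of the 8 R6/2 libraries of a region. There were 5 such sites among the 6,552 of striatum and 13 among the 13,077 of cortex, and none ran the other way. None passed the exact permutation test within sex (adjusted p = 0.461 in striatum and 0.411 in cortex, n = 8 each). They were chosen after their values were seen. The stretches below are shown because their genes carry the genotype differences described further on. Of these 8 stretches, 3 hold a marked motif and 5 hold none.
Scn4b, striatum, chr9:45153909-45153938, + strand: aucuuaugcaugguuuaguccucuggcuug
Scn4b, striatum, chr9:45154048-45154077, + strand: uaagcacagaucGAAUGccauuagguuguc
Syndig1l, striatum, chr12:84678024-84678053, - strand: cagugacagagaggauagaggccugggaua
Zbtb18, striatum, chr1:177448810-177448839, + strand: cacuuuagaauaauagcaugagaaucucac
Prkcb, striatum, chr7:122628004-122628033, + strand: uggcauguagaaagugcugcauaaucgaga
Scn4b, cortex, chr9:45152138-45152167, + strand: cuaaggcacaguaggaucuguaggugacug
Hrk, cortex, chr5:118186998-118187027, + strand: gcaugcuggcUGUGUcuuuauugucucacu
Lamp5, cortex, chr2:136069718-136069747, + strand: ucuagugauuguuuuggGAAUGucucacug

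The cluster lists hold no read counts, so the depth behind a cluster is unknown. Libraries listed between 133,057 and 260,379 TDP-43 clusters each. In striatum, R6/2 libraries had 1,569 to 8,085 enriched 3' UTR clusters (median 4,614.5) and NT libraries 1,653 to 8,691 (median 6,793). In cortex, R6/2 libraries had 4,433 to 15,570 (median 10,764) and NT libraries 9,775 to 19,211 (median 14,541.5). The genotypes overlapped in both regions, and neither difference in number passed the exact permutation test within sex (adjusted p = 0.219 in striatum and 0.0914 in cortex, n = 8 each). Some libraries stood apart from the others. In 5 R6/2 striatum libraries, all 4 female and 1 male, 36.3 to 47.5% of listed clusters were intronic, against 16.1 to 25.8% in NT striatum. One R6/2 cortex library (female 4) had 35.9% intronic clusters and the fewest enriched 3' UTR clusters of its region, and 1 NT striatum library (male 1) had only 1,653.

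The first comparison asked whether the transgene shifts TDP-43 clusters away from 3' UTRs. In striatum the share was lower: 3' UTRs held 28.4% ± 4.15 of enriched clusters in R6/2 libraries and 36.0% ± 2.79 in NT libraries (SD, n = 8 each). R6/2 striatum libraries lay between 23.2 and 34.0% with a median of 28.5%, and NT striatum libraries between 32.3 and 39.9% with a median of 36.6%. Of the R6/2 libraries, 2 males reached into the NT range and the other 6 lay below it. The difference of -7.59 percentage points passed the exact permutation test within sex (p = 0.00204, adjusted p = 0.00408 over 32 library-level tests). In cortex, 3' UTRs held 33.0% ± 3.94 of enriched clusters in R6/2 libraries and 36.1% ± 3.42 in NT libraries, and this difference of -3.04 points did not pass (exact permutation p = 0.121, adjusted p = 0.162, n = 8 each).

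Coding sequence took the larger share in R6/2 striatum. Among enriched clusters in 3' UTRs or coding sequence, the 3' UTR share was 33.1% ± 4.08 in R6/2 striatum and 41.7% ± 2.86 in NT striatum, a difference of -8.68 points (exact permutation p = 0.00122, adjusted p = 0.0028, n = 8 each). Introns held a small share of enriched clusters, 2.66% ± 0.746 in R6/2 striatum and 2.69% ± 1.03 in NT striatum. The listed clusters showed a similar fall: 3' UTRs held 13.7% of them in R6/2 striatum and 20.7% in NT striatum (exact permutation adjusted p = 0.00348, n = 8 each). In cortex they held 16.2% in R6/2 and 19.9% in NT libraries (exact permutation adjusted p = 0.021, n = 8 each). Unlike among enriched clusters, introns held a large share of listed ones, 33.0% in R6/2 and 20.3% in NT striatum. In cortex they held 29.0% and 24.6%. The part of intronic clusters in the listed 3' UTR share was not tested.

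The striatal difference passed without any single library, from -8.31 to -6.58 points, but not in every other setting. It was -1.83 points and did not pass under the stricter thresholds of the study's methods, a log2 IP over input above 3 in addition (exact permutation p = 0.274, n = 8 each), and it was -2.74 points without the 5 libraries rich in intronic clusters, which leaves 3 R6/2 and 4 NT males (exact permutation p = 0.257). Males alone gave -4.755 points (exact permutation p = 0.143, n = 4 each) and females alone -10.4 (exact permutation p = 0.0286, adjusted p = 0.0481, n = 4 each), and the difference between the sexes was not significant (exact permutation p = 0.111, n = 4 each). The part of the intronic libraries in the fall was not tested beyond this. None of 15 tests of a genotype effect that differs between sexes or regions passed (smallest adjusted p = 0.275).

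**Figure D1:**
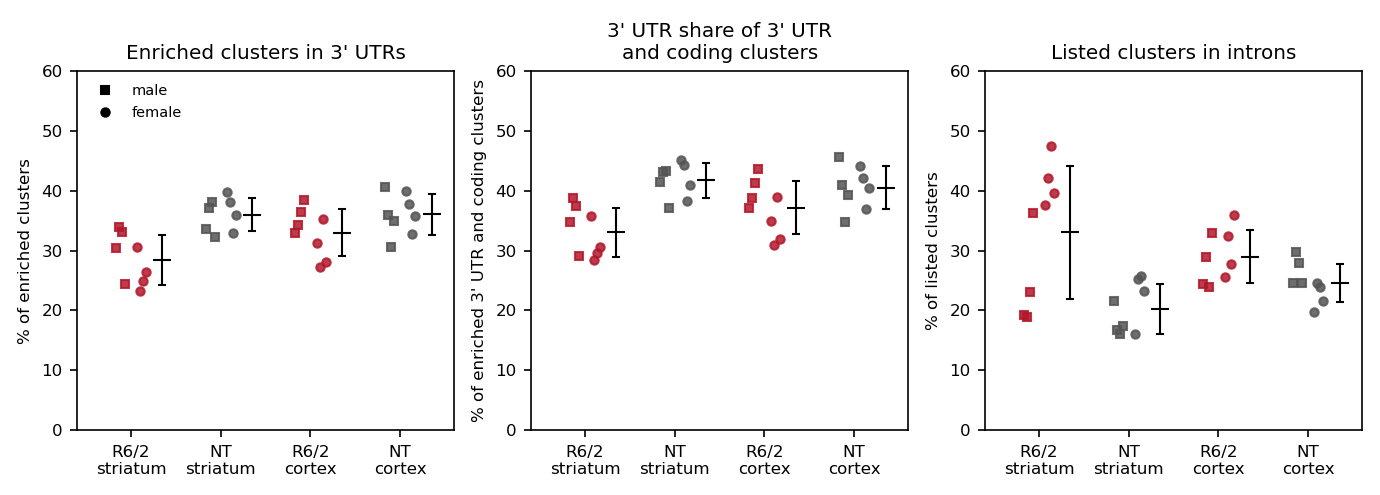
Each point is 1 TDP-43 library, square for males and round for females, R6/2 in red and NT in grey; bars give mean and SD over 8 libraries. The left panel shows the percentage of enriched clusters in 3' UTRs, the middle panel the 3' UTR percentage of enriched 3' UTR and coding clusters, and the right panel the percentage of listed clusters in introns. In striatum the R6/2 mean is 28.4% and the NT mean 36.0% in the left panel, and the 5 R6/2 libraries above 36% in the right panel are visible.

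TDP-43 clusters were spread along the whole 3' UTR. The median enriched cluster was 56 bases long and lay 1,045 bases past the stop codon, in 3' UTRs with a median length of 3,076 bases. Of enriched clusters, 27.0% lay within 500 bases of the stop codon and 16.3% within 500 bases of the annotated end. On a scale with 0 at the stop codon and 1 at the end, NT libraries averaged 0.441 ± 0.00371 for TDP-43 clusters and 0.313 ± 0.0138 for m6A clusters in striatum, and 0.437 ± 0.00311 and 0.314 ± 0.0143 in cortex (SD, n = 8 each). The lowest TDP-43 library lay above the highest m6A library in either region (exact permutation p = 0.000408, the smallest this design can give, adjusted p = 0.001). The first of 10 equal parts of the 3' UTR held 12.2% of TDP-43 clusters and 29.8% of m6A clusters in NT striatum. The last held 4.54% and 3.73% there, so both kinds of cluster thinned out at the annotated end.

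Position differed little between genotypes. In striatum the mean position was 0.432 ± 0.007 in R6/2 and 0.441 ± 0.00371 in NT libraries, a shift of -0.00886 toward the stop codon (exact permutation adjusted p = 0.0115, n = 8 each). In cortex it was 0.434 ± 0.00407 in R6/2 and 0.437 ± 0.00311 in NT libraries (exact permutation adjusted p = 0.181, n = 8 each). The striatal shift was -0.00484 under the study's thresholds and did not pass (exact permutation p = 0.107, n = 8 each). At the annotated end, the last of 10 equal parts of the 3' UTR, R6/2 striatum had 3.93% ± 0.307 of its clusters and NT striatum 4.54% ± 0.453.

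**Figure D2:**
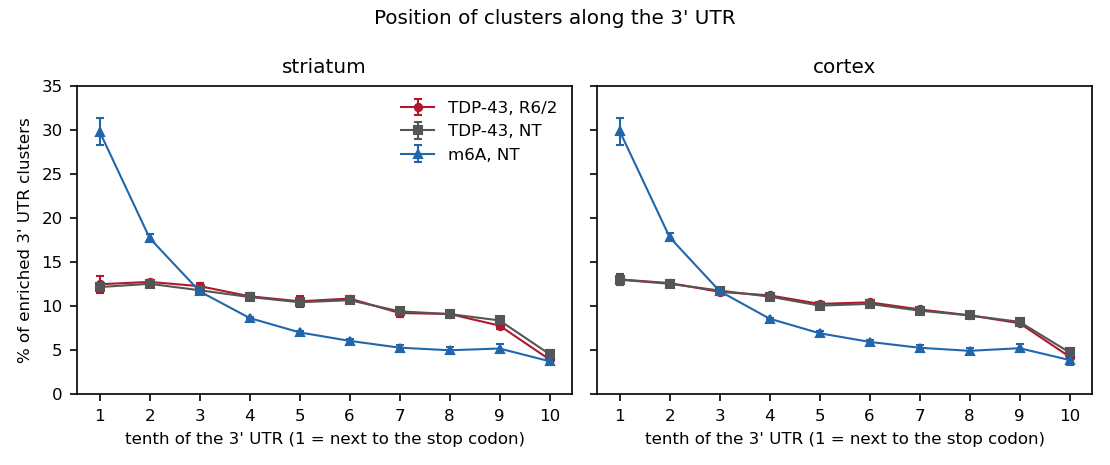
The percentage of enriched 3' UTR clusters in each of 10 equal parts of the 3' UTR, from the stop codon (1) to the annotated end (10), in striatum (left) and cortex (right). Points and bars are means and SD over 8 libraries: TDP-43 in R6/2 (red), TDP-43 in NT (grey) and m6A in NT (blue). The TDP-43 lines fall slowly and the 2 genotypes nearly coincide, whereas m6A starts near 30% and falls steeply.

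UGUGU, the alternating pentamer that TDP-43 is known to prefer, was much more frequent around 3' UTR clusters than around coding clusters of the same library. A 51-base window around the midpoint held it in 13.0% ± 0.516 of enriched 3' UTR clusters and 2.98% ± 0.521 of enriched coding clusters in striatum (SD, n = 16 libraries). In cortex it was 12.3% ± 0.793 in 3' UTRs and 3.76% ± 0.487 in coding sequence. The 3' UTR share was higher in 16 of 16 libraries of each region (permutation test by 100,000 random sign flips, p = 2e-05, adjusted p = 6.4e-05). However, 3' UTRs are themselves richer in the pentamer: of 240,205 adjoining 51-base windows tiled over all 3' UTRs with clusters, 10.3% held it.

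No difference in UGUGU between enriched and not enriched 3' UTR clusters of the same library was detected. They held the pentamer in 13.0% and 13.0% of windows in striatum (permutation p = 0.88) and 12.3% and 12.1% in cortex (permutation p = 0.086). By strength, 12.6% of clusters with a -log10 p of 3 to 10 held it, and 11.7% of the 2,228 clusters at 100 or more. G and C content behaved differently. It averaged 53.4% around enriched and 48.7% around not enriched clusters in striatum, and 52.6% and 48.0% in cortex, higher in the enriched ones in 16 of 16 libraries of each region (permutation adjusted p = 6.4e-05). The mean over all 3' UTR windows was 44.4%, and clusters with a -log10 p of 100 or more reached 55.9%.

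Among all 1,024 pentamers, those most over-represented in enriched 3' UTR clusters relative to 3' UTR windows were rich in G. GCGGG was found in 3.88% of clusters and 1.12% of windows, GGGGG in 11.5% and 3.46%, and GAGGG in 18.2% and 5.87%. GUGUG was found in 14.4% of clusters and 7.81% of windows, GAAUG in 8.43% and 5.10%, and UGUGU in 12.5% and 10.3%. By the ratio of these percentages UGUGU ranked 356, GUGUG 113 and GAAUG 160 of 1,024. The pentamers at the low end were rich in A and U, such as CUAUU, found in 1.17% of clusters and 4.19% of windows. These counts describe letters in the windows and carry no test.

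**Figure D3:**
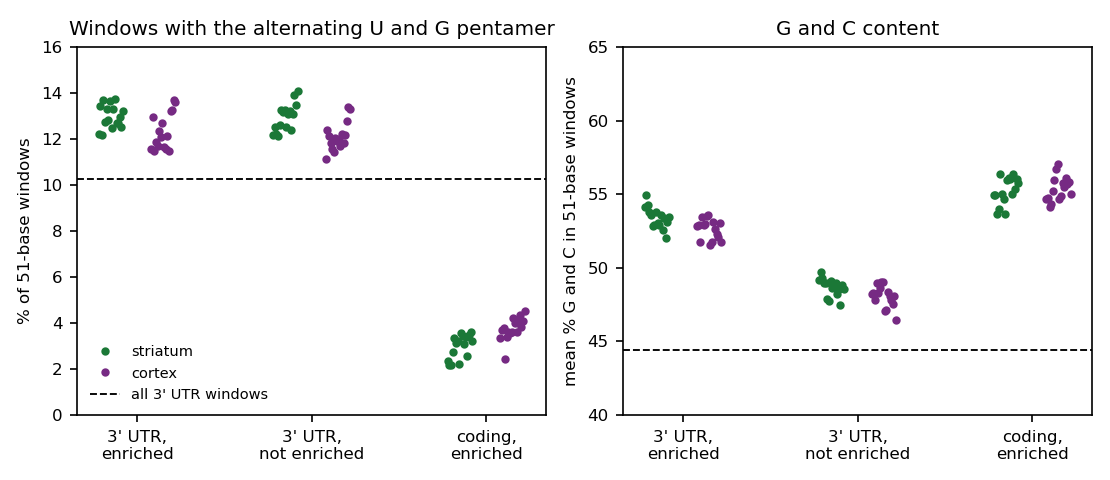
Each point is 1 TDP-43 library of striatum (green) or cortex (purple). The left panel gives the percentage of 51-base windows that hold the pentamer of alternating U and G, and the right panel the mean percentage of G and C, for enriched and not enriched 3' UTR clusters and enriched coding clusters; the dashed line is the value over all 3' UTR windows (10.3% and 44.4%). The pentamer sits between 11 and 15% in both kinds of 3' UTR cluster and G and C content is higher in the enriched kind.

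Clusters in 3' UTRs were stronger than those in coding sequence. The median log2 IP over input of enriched clusters was 3.77 ± 0.0681 in 3' UTRs and 2.88 ± 0.259 in coding sequence in striatum, and 3.67 ± 0.0867 and 2.71 ± 0.128 in cortex (SD, n = 16 libraries). A larger share of listed clusters was enriched in 3' UTRs (17.7% in striatum and 32.1% in cortex) than in coding sequence (10.5% and 19.9%). Enriched 3' UTR clusters also more often touched an m6A site, a stretch with enriched m6A clusters in at least 4 of 16 m6A libraries of the region. The share was 27.3% in 3' UTRs and 19.9% in coding sequence in striatum, and 26.2% and 17.4% in cortex. Each of these differences had the same sign in 16 of 16 libraries of both regions (permutation adjusted p = 6.4e-05). By genotype, the share on m6A sites was 27.1% in R6/2 and 27.4% in NT striatum, and 26.0% in R6/2 and 26.4% in NT cortex, differences that did not pass (exact permutation adjusted p = 0.516 and 0.316, n = 8 each). The UGUGU share was 13.0% in both genotypes of striatum, and 12.1% in R6/2 and 12.6% in NT cortex (exact permutation adjusted p = 0.899 and 0.165, n = 8 each). Mean G and C content was 53.8% ± 0.698 in R6/2 and 53.0% ± 0.510 in NT striatum (exact permutation adjusted p = 0.033, n = 8 each). In cortex it was 53.0% ± 0.596 in R6/2 and 52.3% ± 0.599 in NT libraries (exact permutation adjusted p = 0.0627, n = 8 each).

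Enriched 3' UTR clusters were found in 4,953 genes, and 400 genes held 50 percent of them. Long 3' UTRs held more: 742 of 1,302 genes with a 3' UTR of 4,000 to 8,000 bases had at least 1 enriched cluster (57.0%), against 371 of 6,741 genes with one under 500 bases (5.50%). Of the 6 genes with the most clusters, Grin2b, which encodes a subunit of the NMDA receptor, had 21 to 67 clusters per R6/2 striatum library (median 40) and 28 to 81 per NT striatum library (median 62.5). The others were Adcy1 (adenylyl cyclase), Cds2 (phospholipid synthesis), Slc1a2 (the astrocytic glutamate transporter), Ppp1r9a (neurabin, a spine scaffold) and Tmod2 (tropomodulin, actin capping). In NT cortex the medians were 56.5 for Adcy1, 43.5 for Cds2, 47 for Slc1a2, 35 for Ppp1r9a and 38.5 for Tmod2.

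The second comparison asked in which genes the number of enriched 3' UTR clusters differs between R6/2 and NT striatum. Numbers were scaled by a size factor per library and tested on log2(scaled number + 0.5) with limma, sex in the model, for the 751 genes with a mean of 2 or more. At an adjusted p under 0.05, 86 genes differed (11.5% of those tested), of which 73 were lower (9.72%) and 13 higher (1.73%) in R6/2. The median over all tested genes was -0.17. Leaving out the 5 libraries rich in intronic clusters left 3 R6/2 libraries and no R6/2 female. In that fit 8 genes passed and 83 of the 86 kept their sign. Males alone gave 1 gene and the same sign in all 86. The 86 were picked with the libraries of both subsets included, so a kept sign is no separate check of them. Over all listed clusters, 52 of 607 genes passed, 22 higher and 30 lower, with a median of 0.04. Leaving out 1 library gave 51 (NT female 1), 52 (R6/2 female 3), 53 (NT female 2), 55 (R6/2 male 4), 56 (NT male 2) and 154 genes (NT male 1), and within 1.5 times of 86 for the other 10. In 25 genes (3.33%) the 8 R6/2 and 8 NT libraries did not overlap. In bulk tissue, fewer cells of a type and less RNA per cell cannot be told apart, and a gene with less RNA can also lose clusters.

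Of the 35 MSN markers, 20 could be tested, all 20 had a negative log2 difference and 14 fell, with a list median of -1.19. Of all 751 tested genes 73 fell (9.72%). The filter took the mean over both genotypes, so a listed gene near 0 in R6/2 could be tested only through its NT libraries. Scn4b, a sodium channel subunit concentrated in these neurons, had 6 to 15 clusters in R6/2 striatum libraries (median 10.5) and 23 to 53 in NT striatum libraries (median 38.5), a log2 difference of -1.54 ± 0.13 (SE; limma adjusted p = 1.05e-06). Pde10a, the phosphodiesterase of MSNs, had 1 to 11 (median 7.5) in R6/2 and 16 to 38 (median 29.5) in NT striatum, a log2 difference of -2.28 ± 0.293 (adjusted p = 0.000141). Every NT library lay above every R6/2 library for both genes.

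Arpp21, a neuronal RNA-binding phosphoprotein abundant in MSNs, had 1 to 5 clusters in R6/2 (median 2.5) and 4 to 12 in NT striatum (median 9.5), a log2 difference of -1.28 ± 0.186. Syndig1l, also enriched in striatum, had 0 to 1 in R6/2 (median 0) and 1 to 7 in NT striatum (median 4), a log2 difference of -2.40 ± 0.358. After scaling, the groups did not overlap in either gene. Scn4b had no enriched coding cluster in any library.

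Other MSN markers that fell were Rgs4 (-1.10), a regulator of G protein signalling, and the receptor genes Cnr1 (-1.51) and Adora2a (-1.03). The summed MSN markers were 29 to 104 clusters in R6/2 striatum libraries and 88 to 264 in NT ones. Without the 5 intronic libraries, 20 of 21 testable markers were still lower in R6/2, and 4 fell, with a median of -0.90 where all genes had 0.30. Males alone gave 20 of 20 lower, 1 of them called, and females alone 21 of 21 lower, 9 called. Over all listed clusters, 8 of 9 testable markers were lower and 5 fell, with a median of -0.43.

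Several genes outside the MSN list changed more. Skil, a repressor of TGF-beta signalling, had 0 to 1 clusters in R6/2 (median 0) and 2 to 10 in NT striatum (median 7), the lowest log2 difference of the called genes at -3.07 ± 0.304 (limma adjusted p = 5.41e-06). Syt2, a calcium sensor of synaptic vesicles, had 0 to 3 (median 0) in R6/2 and 1 to 13 (median 9) in NT striatum, a log2 difference of -2.92 ± 0.445. Skil groups did not overlap, and Syt2 groups did, through NT male 1 with its 1 cluster.

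Gsg1l (an auxiliary subunit of AMPA receptors) differed by -2.66, Gpr158 (an orphan receptor) by -2.58 and Hrk (a pro-apoptotic protein) by -2.45 on the log2 scale. Myt1l (a neuronal transcription factor) differed by -2.43 and Kcnk2 (a potassium channel) by -2.31. The immediate early genes Egr3 and Egr1, activity-dependent transcription factors, were the 2 of 18 listed ones that could be tested, and both fell, by 2.08 and 1.75. Egr1 passed in only 5 of 14 fits that left out 1 library. Egr3 had 0 to 2 clusters in R6/2 (median 0.5) and 1 to 7 in NT striatum (median 4).

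Of the named genes that rose in R6/2 striatum, all but 1 had log2 differences under 1. Snhg11, a small nucleolar RNA host gene for which a 3' UTR is annotated, had 3 to 13 clusters in R6/2 libraries (median 4.5) and 0 to 5 in NT libraries (median 0.5), a log2 difference of 2.68 ± 0.418 (limma adjusted p = 0.000553). Elavl3, a neuronal RNA-binding protein of 3' UTRs, had 3 to 12 in R6/2 (median 6.5) and 1 to 8 in NT libraries (median 5), a log2 difference of 0.81 ± 0.197 after scaling. The groups overlapped in both genes, in Elavl3 also after scaling. Tmem130 rose by 0.69 and its groups did not overlap after scaling, at 9.36 to 19.2 in R6/2 and 6.43 to 8.70 in NT libraries. Serinc1 (0.74), Thy1 (0.54), Shank1 (0.50), Spock2 (0.50) and Peg3 (0.44) also rose on the log2 scale. With 1 library left out, Serinc1 and Thy1 passed in 16 of 16 fits, Spock2 in 11, Peg3 in 9 and Shank1 in 3. Thy1 is a neuronal surface glycoprotein, Shank1 a scaffold of the postsynaptic density and Peg3 an imprinted zinc finger protein.

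**Figure D4:**
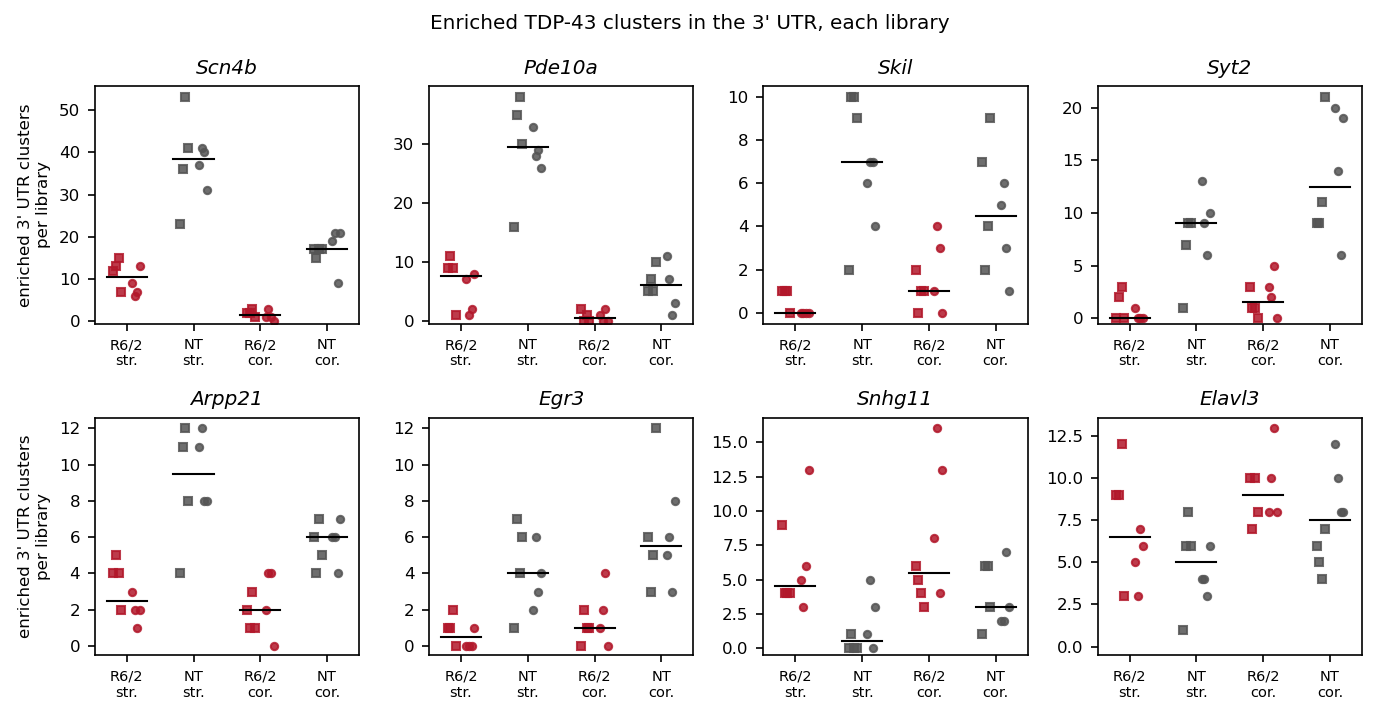
Enriched TDP-43 clusters in the 3' UTR of 8 genes, as the unscaled number per library (y axis), for R6/2 striatum, NT striatum, R6/2 cortex and NT cortex from left to right. Squares are males, circles females and the line is the median of 8 libraries. For Scn4b the medians are 10.5 and 38.5 in R6/2 and NT striatum, and 1.5 and 17 in R6/2 and NT cortex.

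Few markers of other cell types could be tested in striatum, and no difference between lists was tested. Of the astrocyte list 4 of 17 genes could be tested (3 lower, median -0.14) and of the oligodendrocyte list 3 of 19 (median 0.23), and none was called. Summed over the list, astrocyte markers had 20 to 50 clusters in R6/2 and 29 to 63 in NT striatum libraries, and oligodendrocyte markers 29 to 47 in R6/2 and 31 to 59 in NT, unscaled. Their part in the genotype differences was not tested. No microglial or vascular gene could be tested, since the microglial markers were at 0 clusters in every library. Among 38 dendritically localized mRNAs, 21 were tested, 1 rose (Shank1) and 1 fell (Ddn, dendrin, -0.68), with a median of 0.04. Among 60 proteins that bind 3' UTRs, 12 were tested, Elavl3 rose and Hnrnpd, an AU-rich element binding protein, fell by 1.55. Of 20 mRNAs described as 3' UTR targets of TDP-43, 5 were tested and none was called. No gene of the 3' end processing list of 25 had enough clusters to be tested. Of 195 genes known to fall in striatum of HD mice, as listed by the study, 35 were tested, 34 were lower and 21 fell, with a median of -1.28. The share of all tested genes that fell was 9.72%.

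In cortex, 113 of 1,581 tested genes differed (7.15%), of which 96 were lower (6.07%) and 17 higher (1.08%) in R6/2, and the median over all tested genes was -0.12. With size factors from the total number of enriched 3' UTR clusters, 64 were lower and 33 higher and the median was 0.01. In 31 genes (1.96%) the groups did not overlap. Without R6/2 female 4, the library with most intronic clusters, 148 genes differed, 113 lower and 35 higher. Leaving out other single libraries gave 63 (NT female 2), 66 (NT female 4), 67 (NT female 1), 73 (NT male 1) and 188 genes (R6/2 female 3). Over all listed clusters, 27 of 888 genes passed, 10 higher and 17 lower. Females alone gave 0 genes by limma (141 at an unadjusted p under 0.05) and males alone 72.

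Scn4b had the lowest log2 difference of the called genes, -3.05 ± 0.304 (limma adjusted p = 1.44e-05), with 0 to 3 clusters in R6/2 cortex (median 1.5) and 9 to 21 in NT cortex (median 17). Syt2 had 0 to 5 (median 1.5) in R6/2 and 6 to 21 (median 12.5) in NT cortex, a log2 difference of -2.75 ± 0.422. Camkk2, a kinase upstream of CaM kinases and AMPK, had 1 to 8 (median 4) in R6/2 and 11 to 18 (median 13) in NT cortex, a log2 difference of -1.47 ± 0.187. None of these 3 genes had overlapping groups.

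Of 8 tested genes of the cortical excitatory neuron list 6 were lower and 2 fell, with a list median of -0.20. Of all 1,581 tested genes 96 fell (6.07%). The filter took the mean over both genotypes, so the 2 genes, near 0 in R6/2, could be tested only through their NT libraries. Lamp5, a membrane protein of upper-layer and some inhibitory neurons, had 0 to 1 clusters in R6/2 (median 0) and 3 to 5 in NT cortex (median 4), a log2 difference of -2.37 ± 0.367 without overlap. Cux2, a transcription factor of the upper layers, had 0 to 1 in R6/2 (median 0.5) and 1 to 6 in NT cortex (median 3), a log2 difference of -1.82 ± 0.44. The Cux2 groups touched, at 1 cluster. Of 14 GABA interneuron markers 3 could be tested, all 3 were lower and 1 fell. It was Nos1, the neuronal nitric oxide synthase of an interneuron class, by 1.55.

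Other genes at the low end in cortex were D10Wsu102e (-2.81), Ankrd33b (-2.65), Hrk (-2.42), Pde10a (-2.41) and Gria3 (-2.34), the last an AMPA receptor subunit. Egr3 fell by 1.87, and the other 2 immediate early genes tested, Egr1 among them (-1.44), did not pass. Of 12 testable MSN markers 11 were lower and 4 fell, namely Scn4b, Pde10a, Arpp19 (-1.55) and Arpp21 (-1.33, which passed in 9 of 16 fits with 1 library left out), with a median of -0.81. Of the study's list of genes that fall in HD striatum, 33 were tested, 32 were lower and 13 fell, among them Rhobtb2 (-1.18) and Anks1b (-0.78). Of all 1,581 tested genes 96 fell (6.07%). Homer2, a postsynaptic scaffold, fell by 0.96, and Ddn by 0.63.

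The named genes that rose in R6/2 cortex also had log2 differences under 1. Srsf1, a splicing factor, had 4 to 8 clusters in R6/2 (median 5) and 2 to 6 in NT cortex (median 3.5), a log2 difference of 0.72 ± 0.2. Peg3 had 9 to 15 (median 12) in R6/2 and 6 to 11 (median 9) in NT cortex, a log2 difference of 0.65 ± 0.121. Elavl3 rose by 0.62, Dcaf5 by 0.48, BC029722 by 0.48, Nsg2 by 0.42, March6 by 0.41 and the stress granule protein G3bp2 by 0.38. The Peg3, Dcaf5 and G3bp2 groups were separate after scaling. With 1 library left out, BC029722 passed in 11 of 16 fits, Srsf1 in 9, Nsg2 in 5 and March6 in 4. No astrocyte or oligodendrocyte gene was called.

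Tardbp itself carried few clusters. Its 3' UTR had 1 to 2 enriched clusters in R6/2 striatum (median 2) and 0 to 3 in NT striatum (median 1), too few to be tested, and 1 to 4 in R6/2 cortex (median 3) and 2 to 5 in NT cortex (median 2.5). The log2 difference in cortex was 0.09 ± 0.198 (limma adjusted p = 0.82).

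Between the regions, 26 genes fell in both, which is 35.6% of the genes that fell in striatum and 27.1% of those that fell in cortex. They include Scn4b, Pde10a, Arpp21, Syt2, Hrk, Egr3 and Camkk2, and also Prkcb (a protein kinase C) and Grin2a (an NMDA receptor subunit), named after their values were seen. Cds2, Elavl3 and Peg3 rose in both after scaling, the striatal call of Peg3 being one often lost when a library was left out. Unscaled, Cds2 had 17 to 40 clusters in R6/2 and 8 to 45 in NT striatum, and 30 to 50 in R6/2 and 39 to 50 in NT cortex. Genes that rose had a median of 9.375 clusters per library in striatum and 12.06 in cortex. For all tested genes it was 4.125 and 4.375. The part of cluster number in these rises was not tested. Of the 73 genes that fell in striatum, 59 could be tested in cortex and 56 of those were lower there. No gene's genotype effect differed between the regions (0 of 1,194 genes by limma, 0%, with 77 at an unadjusted p under 0.05). None differed between the sexes either, at 0 of 751 (0%) in striatum with 66 at an unadjusted p under 0.05, and 0 of 1,581 (0%) in cortex with 35.

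To see whether the 3' UTR of a gene moved otherwise than its coding sequence, the difference of both log2 numbers was tested for genes with enough clusters in each. In striatum 5 of 257 genes passed (1.95%), and all 5 were relatively lower in the 3' UTR in R6/2. With total size factors 3 passed, 2 lower and 1 higher, and leaving out single libraries gave 1 to 5. Skil passed in 16 of 16 such fits, Zbtb18 in 5 of 16 and Nfasc in 2 of 14. Skil had the largest difference, -2.51 ± 0.312 (limma adjusted p = 0.000107): its 3' UTR averaged 0.375 clusters in R6/2 and 6.88 in NT striatum, and its coding sequence 4 and 6. Zbtb18, a neuronal transcription repressor, differed by -1.98 and averaged 1.25 and 6.25 in the 3' UTR and 3.38 and 3.75 in coding sequence. Nfasc, a cell adhesion molecule of the axon, differed by -2.09, with more coding clusters in R6/2 (5 against 0.875). Myt1l (-1.95) and Dgkb (-1.74), a diacylglycerol kinase, were the others. In cortex 0 of 749 genes passed by limma (0%), with 93 at an unadjusted p under 0.05.

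Among the other genes that fell, coding values mostly had the same sign. Of the 73 genes that fell in the 3' UTR in striatum, 27 could be tested in coding sequence, all 27 were lower there and 12 passed, with a median coding difference of -0.65 against 0.04 for all 1,041 genes tested in coding sequence. Of all 1,041 genes 501 were lower and 74 called lower. Of the 96 that fell in cortex, 43 could be tested, 41 were lower and 11 passed, with a median coding difference of -0.49. Of all 2,052 genes tested in cortical coding sequence 1,207 were lower and 86 called lower, with a median of -0.09. The MSN list in striatal coding sequence had 14 tested genes, 14 lower and 7 called, with a median of -0.84.

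The third comparison set cortex against striatum in NT mice, which also checks the tissue labels. Cortex libraries had more enriched 3' UTR clusters, 13,954 ± 3,382, than striatum libraries, 6,497 ± 2,406 (SD, n = 8 each; exact permutation p = 0.000408, the smallest this design can give), whereas the 3' UTR share of enriched clusters was 36.1% and 36.0%, a difference of 0.0553 points (exact permutation p = 0.971, n = 8 each). Of 1,354 tested genes 714 differed (52.7%), 611 higher (45.1%) and 103 lower (7.61%) in cortex, with a median of 0.69. The split depended on the scaling, since size factors from total clusters gave 349 higher and 299 lower, and leaving out NT striatum male 1 gave 543 and 204. In 242 genes (17.9%) the groups did not overlap.

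The labels matched the markers. All 21 testable MSN markers were lower in cortex and 18 were called, with a list median of -1.30. The dopamine receptor gene Drd2 and Syndig1l were at 0 in every NT cortex library, against totals of 35 and 33 clusters over the NT striatum libraries. Adora2a (-3.49), Lrrc10b (-3.64), Pde10a (-2.94) and Scn4b (-1.74) were also lower in cortex. Of the list, 7 genes had no cluster in any NT striatum library, among them the neuropeptide genes Penk and Tac1.

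Of 6 testable cortical excitatory neuron markers 5 were higher in cortex and all 5 were called. Among them were Slc17a7, the vesicular glutamate transporter of cortical neurons (2.61 ± 0.372), Nptx1 (2.10), Mef2c (1.66) and Camk2a (0.80). Of all 1,354 tested genes 1,056 were higher in cortex and 611 were called higher (45.1%). The list median was 1.45, and that of all tested genes was 0.69, which Camk2a barely exceeded. Rasgrf2 had 5 to 13 clusters in NT cortex (median 9.5) and 0 in every NT striatum library. Ildr2 (3.86), Kcnh7 (3.80), Grk3 (3.70), Nt5dc3 (3.69) and the postsynaptic scaffold gene Shank2 (3.65) were also higher in cortex on the log2 scale. So were Homer2 (2.72), Nsmf (2.10), Erbb4 (2.67), Samd14 (1.28) and Shank1 (0.81), and the genes for the 3' UTR binding proteins Ago2 (1.30), Samd4 (1.34) and Cpeb3 (1.33). Shank1 also lay near the median over all tested genes.

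After scaling, the myelin genes Mbp (-0.86) and Bcas1 (-0.69) were lower in cortex, and so was Rbfox1 (-0.64). Unscaled, Bcas1 had 3 to 7 clusters in NT cortex and 4 to 6 in NT striatum libraries. All tested genes had a median of 0.69 after scaling.

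**Figure D5:**
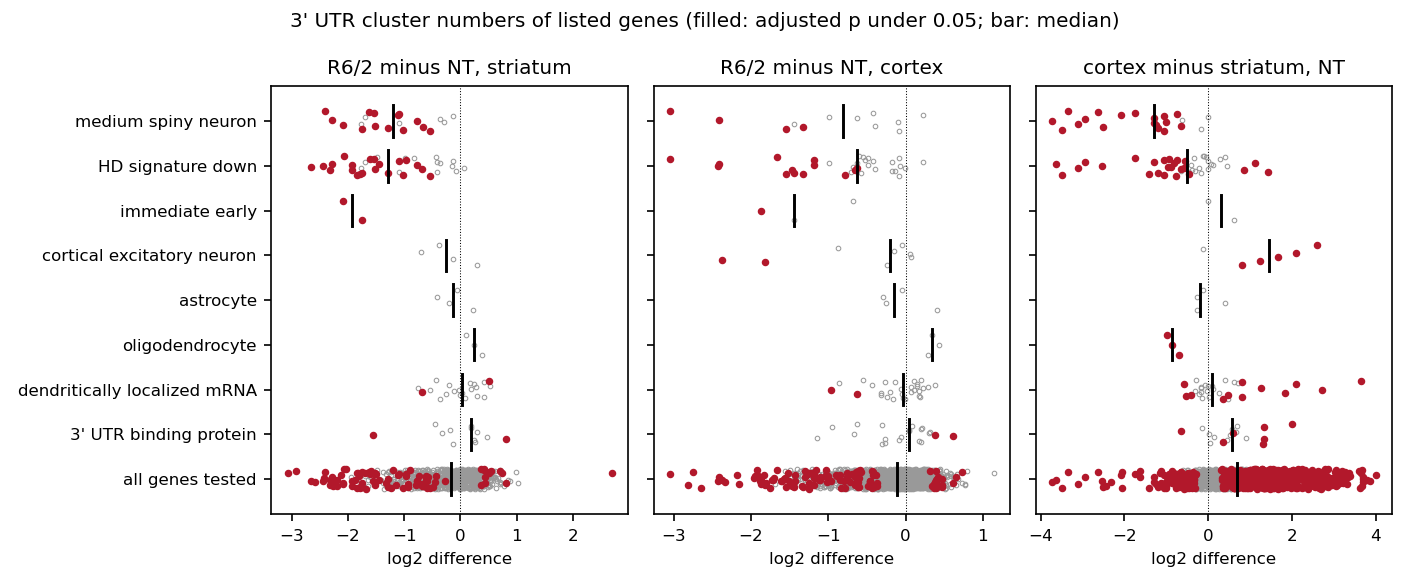
Log2 differences in the scaled number of enriched 3' UTR clusters for the genes of 8 lists and for all genes tested, 1 row per list. The panels show R6/2 minus NT in striatum, R6/2 minus NT in cortex and cortex minus striatum in NT; filled red points passed limma at an adjusted p under 0.05, open points did not, and the black bar is the row's median. MSN markers have medians of -1.19, -0.81 and -1.30, against -0.17, -0.12 and 0.69 for all genes.

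Single sites repeated across libraries. Sites were 3' UTR stretches with an enriched cluster in at least 4 of the 16 libraries of a region, and there were 6,552 in 2,018 genes of striatum and 13,077 in 3,297 genes of cortex. Of striatum sites 94.5% touched a cortex site, and of cortex sites 44.4% touched a striatum site. An enriched cluster was found in all 32 libraries at 676 sites in 352 genes, and 10.1% of these held UGUGU. By genotype, 4,093 striatum sites were found in fewer R6/2 than NT libraries and 812 in more. No site passed (0 of 6,552, 0%, in striatum and 0 of 13,077, 0%, in cortex), with 407 and 701 at an unadjusted p under 0.05 by the exact permutation test. The smallest p this test can give, 0.000408, is too large to pass over so many sites unless very many reach it.

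The sites printed above, picked from 18 after their values were seen, lay at various places along the 3' UTR. The 2 striatal Scn4b sites were at relative positions 0.936 and 0.978 of its 3,648-base 3' UTR, close to the annotated end. The Syndig1l site was at 0.471, the Zbtb18 site at 0.329 and the Prkcb site at 0.299. In cortex the Scn4b site printed was at 0.452 and its other such site at 0.124. Over the enriched clusters touching the printed site, from any of the 32 libraries of both regions and genotypes, the median log2 IP over input was 5.51. The Hrk site was at 0.514 and the Lamp5 site at 0.747.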

How the data were processed

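TDP-43 eCLIP-seq and m6A eCLIP-seq libraries were made by the study with a commercial kit and analysed with CLIPper, a cluster caller; the submitters' notes name mm10. One cluster list per IP library was deposited, and the lists of 64 libraries were used (32 TDP-43, 32 m6A), while 6 m6A lists of another experiment were not used here. Each deposited line holds a cluster's position and strand, with the -log10 p value and the log2 ratio of IP over size-matched input that the authors computed. The lists hold no reads, so depth per cluster is unknown and no interval for counting error can be given; replicate spread is the only error. Reference chromosome lengths were checked against the lists.

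The midpoint of each cluster was placed on GENCODE vM21 transcripts, same strand only. Enriched means p of 0.001 or less; the study's stricter thresholds, which add a log2 ratio over 3, were an alternative. Positions used the longest 3' UTR that holds the midpoint. Motifs were sought in 51-base windows on the transcript strand, and background windows tiled the longest 3' UTR of each gene with an enriched cluster.

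Library measures were compared with exact permutation tests within sex (4,900 labelings, two-sided) or with 100,000 sign flips within libraries, with Benjamini-Hochberg adjustment over 32 tests. Enriched clusters per gene were divided by median-of-ratios size factors, 0.5 was added, and log2 values were fitted with limma 3.58.1 in R 4.3.3 with sex as covariate, for genes with a mean of 2 or more. These fits were tested on simulated data. In striatum they called 22.4% of genes given a fold change of 0.5, 10.4% at 2 and 56.1% at 3. In cortex these shares were 20.9%, 22.4% and 84.8%. Of genes left unchanged, 0.363% were called in striatum and 0.29% in cortex. The median log2 differences of these unchanged genes were -0.229 in striatum and -0.126 in cortex. Python 3.11.15, numpy 2.4.6, pandas 2.3.3, scipy 1.17.1, pysam 0.24.0 and matplotlib 3.10.9 were also used.

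Named genes were, per genotype comparison, up to 8 highest and 8 lowest log2 differences among called genes with the same sign in males and females (5 and 5 for cortex minus striatum, up to 3 and 3 for 3' UTR minus coding), the 6 genes with most clusters, up to 4 called genes per list by lowest p, the 6 most recurrent sites, and Tardbp. The regions, gene lists and tests were chosen with earlier results of these data known, so no p is given for a list. The study's methods describe 4 animals per sex and genotype, but the labels do not tie libraries to animals, so p-values measure the spread between libraries. Same-numbered libraries did not deviate together (correlations of -0.5 to 0.463), so numbers were not taken to pair samples.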

Additional observations from a re-analysis of the deposited data

Results flagged for a closer look

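Among 60 groups of 8 libraries, 7 had 1 library farther from the rest than Dixon's critical value for its size allows; chance gives about 1 such group in 20. Values of genes are enriched 3' UTR clusters scaled over all 32 libraries.

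NT striatum male 1, the NT striatum library with fewest genes, stood apart in 3 genes. It had 78.3 scaled clusters of Ppp1r9a, against 38.8 to 50.1 in the other NT striatum libraries. It had 21.6 of Cds2, against 30.5 to 37.1, and 13.5 of Tmod2, against 24.8 to 32.5.

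R6/2 cortex female 4 had 51.6 scaled clusters of Adcy1, against 35.2 to 39.3 in the other R6/2 cortex libraries, and 14.2 of Ppp1r9a, against 19.2 to 23.2. R6/2 cortex female 3 had a mean G and C content of 51.73% around its enriched 3' UTR clusters, against 52.81 to 53.62% in the others. NT cortex female 3 had 40.1 scaled clusters of Cds2, against 30.1 to 34 in the others.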

How the results depend on the processing

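Depth is unknown, so absence of a cluster cannot be told from low depth, and per-gene numbers are small. The sex-restricted tests on library measures cannot give a p under 0.0286, and the causes of the changes below were not tested. Alternatives that count abutting clusters once or search only the cluster bases were chosen after seeing the data, as were the G and C content, the number of clusters and the 3' UTR share of 3' UTR and coding clusters.

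Under the study's thresholds the R6/2 minus NT difference in the enriched 3' UTR share was -1.83 points in striatum and 1.09 in cortex (opposite sign), the shift in position -0.00484 and 4.59e-05, the UGUGU difference in striatum -0.0052, and the 3' UTR share of 3' UTR and coding clusters 1.14 in cortex. Over all listed clusters the UGUGU difference was -0.472 and the m6A difference 0.384 in striatum, and in cortex the m6A difference was 0.470, the 3' UTR share -3.76 and the position -0.00599, the last 2 passing. UGUGU within cluster bases gave -0.158 in striatum. Males alone gave -4.755 for the enriched share, -5.28 for the listed share, -0.00373 for position and 241.5 more clusters in striatum, and -2.04 for the listed share, 0.0405 for the 3' UTR share of 3' UTR and coding clusters and -1.23 for UGUGU (passing) in cortex. Females alone gave -0.177 for UGUGU and 0.195 for m6A in striatum, and -5.47 for the listed share and 0.267 for UGUGU in cortex. Without the 5 intronic libraries, striatum gave -2.74 for the enriched share, -3.68 for the listed share, -0.00345 for position and 1,527 more clusters.

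The counts that follow are all genes called by each fit among the genes it tested. Striatum (86) gave 34 under the study's thresholds, 52 over listed clusters, 50 with total size factors and 56 by covered bases. It gave 50 with abutting clusters counted once, 1 in males alone and 8 without the 5 intronic libraries. Fewer of the 86 themselves were called again: 30 under the study's thresholds, 20 over listed clusters and 48 with total size factors. By covered bases 50 of them were, and with abutting clusters counted once 48. Cortex (113) gave 41 under the study's thresholds, 27 over listed clusters, 173 at a mean of 1 or more, 72 in males alone, 0 in females alone and 64 with abutting clusters counted once. The 3' UTR minus coding comparison of striatum (5) gave 0 under the study's thresholds, 17 over listed clusters, 3 with total size factors, 2 at a mean of 1 or more, 0 at 4 or more, 2 by covered bases, 1 in males alone and 0 without the 5 libraries; that of cortex (0) gave 1 under the study's thresholds and 4 over listed clusters. Cortex minus striatum in NT (714) gave 461 under the study's thresholds, 161 over listed clusters, 1,154 at a mean of 1 or more and 354 at 4 or more. Over listed clusters the 3' UTR values of Homer2 in cortex (0.05234) and of Ago2 between regions (-0.09329) changed sign. For single genes and added measures, 1,833 other values kept direction and side of the threshold, 317 kept direction without passing and 6 newly passed.

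Leaving out single libraries gave 51 to 154 genes in striatum, 63 to 188 in cortex, 562 to 750 between regions, 1 to 5 and 0 to 3 in the 3' UTR minus coding comparisons of striatum and cortex, -8.31 to -6.58 points for the striatal share, -0.082 to 0.174 and -0.648 to -0.397 for the UGUGU difference of striatum and cortex, and -0.793 to 0.885 for the 3' UTR share between regions. With the replicate number as a block, 44 genes passed in striatum, 57 in cortex and 1 in the 3' UTR minus coding comparison of striatum. In this balanced design the block cannot change a log2 difference, so every gene keeps its sign by construction. The listed share in cortex (-3.76) no longer passed with the block (exact permutation p = 0.0547, adjusted p = 0.0875, n = 8 each).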

Other observations

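In NT cortex the UGUGU share of enriched 3' UTR clusters separated by sex: males lay between 13.2 and 13.7%, and females between 11.5 and 12.1%, without overlap (n = 4 each). R6/2 cortex did not separate, with 12.2% ± 0.422 in males and 12.0% ± 0.681 in females (SD, n = 4 each). The genotype effect did not differ between the sexes by an exact permutation test (difference -1.50 points, p = 0.0514, adjusted p = 0.275 over 15 such tests, n = 4 each).

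The genes called by genotype had somewhat longer 3' UTRs than all tested genes. In striatum the median was 3,222 bases for genes that fell and 3,235 for genes that rose, against 2,963 for all tested genes. In cortex it was 3,705 for genes that fell and 3,298 for genes that rose, against 2,721 for all tested genes. These are descriptions without a test.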
